A study of Homo sapiens with 4 samples.

Results

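NT2D1 and GCT27 are a pair of human germ cell tumour cell lines that both carry high transcript levels of the pluripotency factors SOX2 and NANOG, and they were compared here gene by gene. They account for 2 of the 4 arrays of the series and were picked out by the cell line names in the labels, as lines known to hold SOX2 and NANOG. The other arrays hold TCam-2, labelled as a seminoma line, and GCT44, labelled as a yolk sac tumour line. The study looked for genes silenced by DNA methylation in the non-seminoma lines relative to TCam-2, and its methylation arrays are not used here. NT2D1 is labelled as teratoma and came from a lung metastasis of a testicular germ cell tumour. GCT27 is labelled as embryonal carcinoma, the undifferentiated pluripotent tumour cell type, and came from a testicular germ cell tumour. Both were grown in DMEM with fetal bovine serum and antibiotics, no treatment is labelled, and TCam-2 alone was grown in RPMI. Each line is 1 established culture on 1 single-colour array of 54675 probe sets, so the differences have no replicate error and no test, and their precision is limited by the number of arrays. With bulk RNA, fewer cells with a transcript and less transcript per cell cannot be told apart.

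Levels are linear intensities, and a value applies to a probe set, so levels are compared between lines and never between genes. Each gene was read from its brightest probe set that matches that gene alone. A value below 76.4 units, the median of all values, was set to that floor before log2 was taken. Of 19775 genes with such a probe set, 5942 were below the floor in both lines and 13833 were compared. A log2 difference is NT2D1 minus GCT27, and a gene was called higher in a line at 4-fold or more, a log2 difference of 2. A fold against a level below the floor is a lower bound and is written as "at least".

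Human pluripotent cells are held in their state by SOX2, NANOG and POU5F1, with FGF signalling through ERK, activin or NODAL signalling and WNT signalling acting on them from outside. Pluripotency is described as naive, resembling the preimplantation epiblast, or primed, resembling the later epiblast, and each state has its own marker genes. Pluripotent cells form an epithelium held together by the adhesion protein CDH1. BMP ligands act through SMAD1 and its relatives on targets such as the ID genes and are known to draw pluripotent cells towards other fates.

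Of the 13833 genes, 328 (2.37%) were at least 4-fold higher in NT2D1 and 398 (2.88%) were at least 4-fold higher in GCT27, 5.25% in all. The median difference over all compared genes was -0.01, and 77.1% of genes lay within 2-fold. GCT27 was below the floor at 131 of the 328 genes, and NT2D1 at 133 of the 398. At a threshold of 8-fold, 89 genes (0.643%) were higher in NT2D1 and 116 (0.839%) in GCT27. Across genes, which are not independent replicates, Pearson's r of the floored log2 levels was 0.897 and Spearman's rho 0.872 for this pair. The other 5 pairs of lines had between 8.22% and 11.4% of genes at least 4-fold apart and r between 0.801 and 0.858. The nearest genes to the threshold were PHF10 (2.01) just inside and BCL7A (1.99992) just outside for NT2D1. They were ITPR3 (-2.00034) just inside and MOSPD1 (-1.99902) just outside for GCT27.

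Each array had been scaled to the same trimmed mean, so like median intensities are largely set by that scaling. Median intensities were 77.4 in NT2D1 and 79.3 in GCT27, and the 3′ to 5′ signal ratio was 2.83 and 2.97 for ACTB and 0.98 and 0.90 for GAPDH. The 18 probe sets for RNA spiked in before hybridization were 0.23 higher in NT2D1 on the log2 scale. Scaling to them shifts the median difference of all genes to -0.22, and the calls become 267 higher in NT2D1 and 548 higher in GCT27, so that NT2D1 holds 32.8% of the calls in place of 45.2%.

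The labels were set against marker genes. SOX2 measured 20575 units in NT2D1 and 18309 in GCT27, against 391 in TCam-2 and 6.41 in GCT44. NANOG measured 13322 and 22428, and the RNA-binding factor LIN28A 30531 and 21142. L1TD1, a stem cell RNA-binding protein, measured 12713 and 14635. Both lines were thus bright for 6 of the 7 pluripotency markers with a probe set, the exception being ZFP42, below the floor in both (47.5 and 2.94 units). POU5F1 and TDGF1 have no probe set of their own in the annotation and were not analysed here. Of 34 genes of differentiated tissues, such as those found in a teratoma, 17 were below the floor in both lines, among them the gut genes CDX2 and VIL1, the glial gene GFAP and the muscle gene MYOG, 2 had no probe set and 15 were compared. COL2A1, the collagen of cartilage, was the 1 member called higher in NT2D1, at 1426 units against 45.3 in GCT27, at least 18.7-fold. SYT1, a synaptic vesicle protein, was the 1 member called higher in GCT27, at 4103 units against 370. Over all genes 2.37% were called higher in NT2D1 and 2.88% in GCT27. NT2D1 is therefore referred to by its name, since its label of teratoma was not matched by broad expression of these genes. Of 7 seminoma and germ cell markers, 2 were below the floor in both, SOX17 (10.4 and 44.2 units) and PRAME (5.65 and 13.3). The others were above it in both lines. KIT measured 1160 and 1375 units, PDPN 1790 and 2294, TFAP2C 1901 and 2442, PRDM1 177 and 93.1, and CXCR4 439 and 91.5. Of 7 yolk sac markers, 5 were below the floor in both lines, and APOA2 measured 5.63 and 8.37 units against 38064 in GCT44. Of 5 blood cell markers 3 were below the floor in both, 1 had no probe set and HBB measured 153 and 263 units. Of 7 fibroblast markers, VIM (19561 and 17191), COL1A1 (6093 and 3982) and THY1 (1668 and 2334) were within 2-fold. LUM (241 and 47.6) and PDGFRB (200 and 52.8) were more than 2-fold higher in NT2D1 without a call. COL3A1 (78.4 and 28.6) and DCN (69.3 and 95.6) lay near or below the floor.

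**Figure D1:**
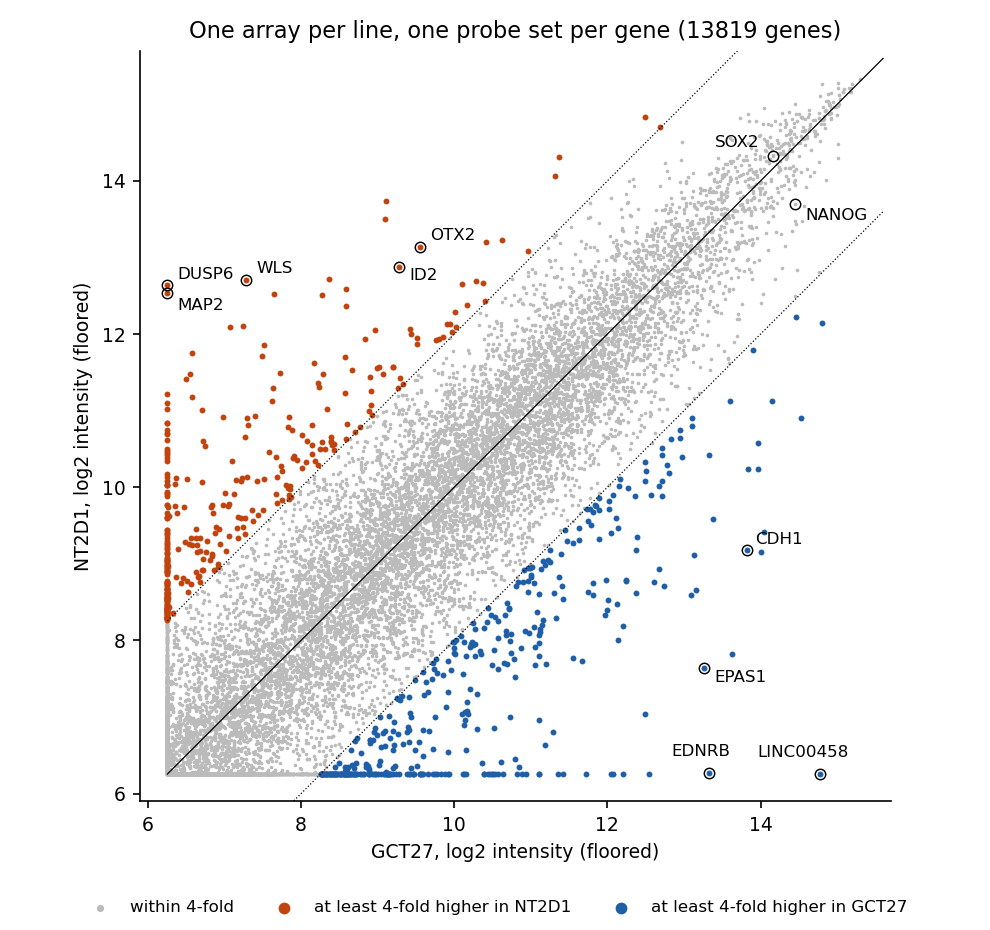
Floored log2 intensity of each gene in GCT27 (horizontal) and NT2D1 (vertical), 1 point per gene, with the diagonal and the 4-fold lines; 13819 genes are drawn, without 14 genes that include those of the Y chromosome. SOX2 and NANOG lie near the diagonal at the bright end, and the points along the left and lower edges are genes below the floor in 1 of the lines.

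Promoter sequences are shown for 3 of the most divergent genes, since the study asked about silencing by methylation, which acts on CG pairs. They are the 250 bases before the gene's start that lie farthest upstream in RefSeq's table for GRCh38.p14, written along the gene's strand, with CG pairs in capitals. DUSP6 (higher in NT2D1) lies on the minus strand at chr12:89352502-89352751 and its window holds 16 CG pairs. WLS (higher in NT2D1) lies on the minus strand at chr1:68232547-68232796 with 10, and EDNRB (higher in GCT27) on the minus strand at chr13:77919683-77919932 with 9.
DUSP6: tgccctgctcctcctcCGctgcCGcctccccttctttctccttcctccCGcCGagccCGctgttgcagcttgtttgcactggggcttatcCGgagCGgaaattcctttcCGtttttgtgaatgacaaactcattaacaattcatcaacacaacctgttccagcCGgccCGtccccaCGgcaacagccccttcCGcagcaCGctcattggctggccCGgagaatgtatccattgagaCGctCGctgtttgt
WLS: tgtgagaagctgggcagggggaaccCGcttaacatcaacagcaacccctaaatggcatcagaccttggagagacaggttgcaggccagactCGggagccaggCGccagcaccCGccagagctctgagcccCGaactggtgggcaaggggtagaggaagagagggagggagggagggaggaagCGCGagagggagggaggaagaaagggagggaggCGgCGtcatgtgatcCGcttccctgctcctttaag
EDNRB: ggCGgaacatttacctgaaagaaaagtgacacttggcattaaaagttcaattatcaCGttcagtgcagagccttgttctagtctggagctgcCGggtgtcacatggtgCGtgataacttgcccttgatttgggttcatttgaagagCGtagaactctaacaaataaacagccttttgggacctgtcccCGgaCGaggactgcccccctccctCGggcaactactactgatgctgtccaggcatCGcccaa
Over the 11132 compared genes that have a window, the median was 20 CG pairs with quartiles of 12 and 28. The DUSP6 window thus lay between the lower quartile and the median, and the WLS and EDNRB windows lay below the lower quartile. The counts describe these letters only, and no methylation value enters them.

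The marker genes of the contrast were among the widest differences. They were chosen with earlier results of these data known, so their rank is a description and not a result. DUSP6, a phosphatase that switches off ERK and is itself induced by ERK, measured 6375 units in NT2D1 and 75.5 in GCT27, at least 83.4-fold apart. GCT44 had 10955 units and TCam-2 744, so GCT27 was the 1 line of the 4 below the floor. Its 2 other bright probe sets gave log2 differences of 4.30 and 5.55. WLS, the carrier that brings WNT ligands to the cell surface, measured 6708 units in NT2D1 and 156 in GCT27, a 42.9-fold difference. TCam-2 (3822) and GCT44 (6236) were again on the side of NT2D1. LINC00458, a long non-coding RNA of pluripotent stem cells, measured 28002 units in GCT27 and 64.1 in NT2D1, at least 366-fold. GCT44 had 24943 units and TCam-2 72.8, so the RNA was bright in 2 lines and below the floor in 2. Its other bright probe sets gave -7.79 and -5.80. It lies on chromosome 13, as does EDNRB.

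**Figure D2:**
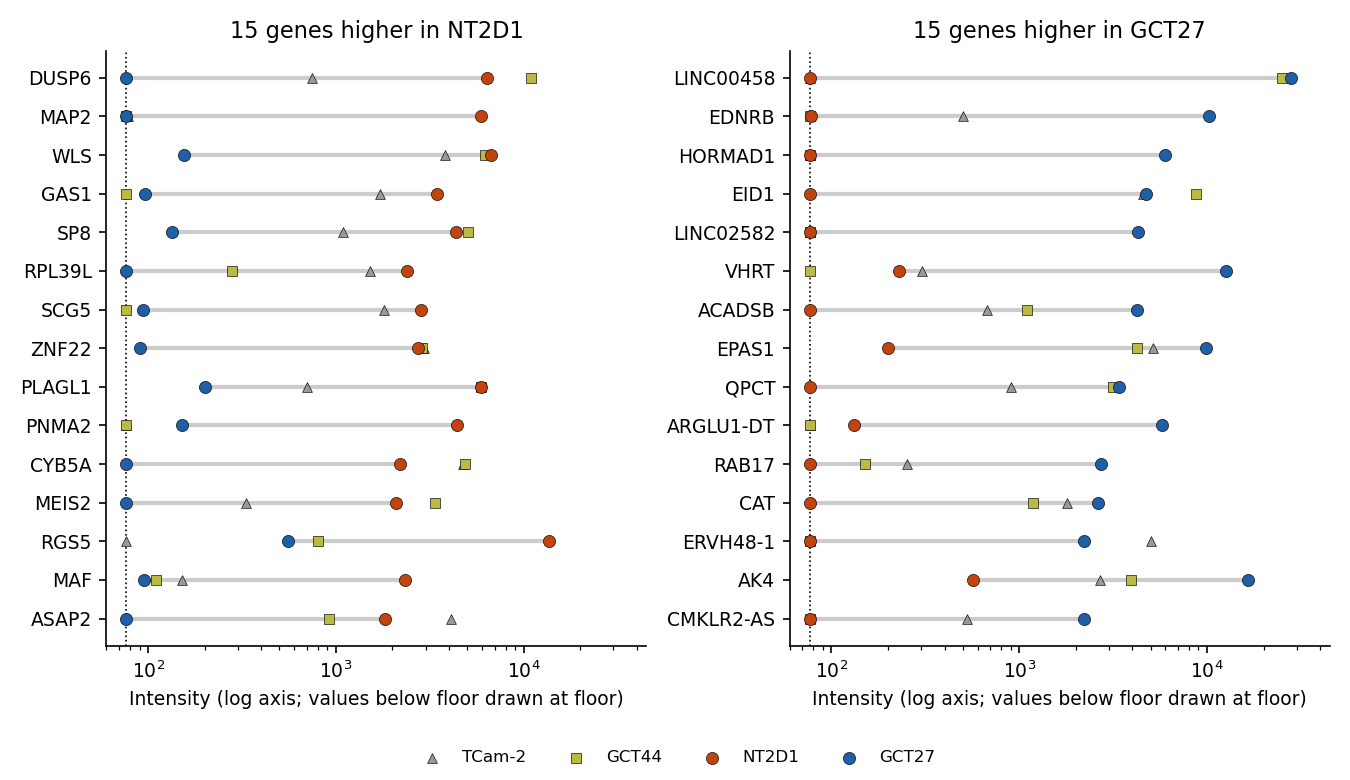
Intensity on a log axis of the 15 genes with the widest difference in each direction, in all 4 lines, with levels below the floor drawn at the floor (dotted line). Grey bars join NT2D1 and GCT27; the other lines fall on either end, as for DUSP6, where GCT44 (10955 units) lies beyond NT2D1 (6375 units).

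Besides DUSP6 and WLS, the 15 widest differences towards NT2D1 included MAP2, which binds microtubules in dendrites, at 5940 units in NT2D1, 28.5 in GCT27, 78.2 in TCam-2 and 8.08 in GCT44. NT2D1 was the 1 bright line of the 4, and the difference was at least 77.7-fold. GAS1, a surface co-receptor for hedgehog ligands, measured 3457 against 95.7 units, 36.1-fold, and was bright in TCam-2 (1707) and not in GCT44 (61.3). SP8, a zinc finger factor of limb and forebrain development, measured 4353 against 134 units, 32.4-fold, with 5042 in GCT44 and 1092 in TCam-2. ITGB8, an integrin subunit next to SP8 among the compared genes of chromosome 7, was also higher in NT2D1, at 1551 against 106 units. Neighbours here and below are adjacent in the order of compared genes, and genes that were not compared may lie between them. SCG5, a chaperone of a prohormone-cleaving enzyme, measured 2846 against 93.8 units and 5.50 in GCT44. Its neighbour on chromosome 15, the BMP antagonist GREM1, measured 786 against 145 units. PLAGL1, an imprinted zinc finger gene, measured 5901 against 201 units, and GCT44 had 5909. MEIS2, a homeodomain factor known to respond to retinoic acid, measured 2081 against 66.5 units. RGS5, which shortens G protein signals, measured 13625 units against 553, 24.6-fold, and 802 in GCT44. MAF, a leucine zipper transcription factor, measured 2321 against 95.2 units and PNMA2, a neuronal antigen, 4389 against 152. With the median over a gene's probe sets these last 2 genes fell under 4-fold, at 1.56 and 1.77 on the log2 scale. RPL39L (a ribosomal protein copy known from testis), ZNF22, CYB5A (cytochrome b5) and ASAP2 completed the group, with 30.3-fold for ZNF22 and lower bounds of 31.1-fold for RPL39L, 28.7-fold for CYB5A and 24.0-fold for ASAP2. ZNF22 and CYB5A were bright in all lines except GCT27, at 2733 to 2957 units for ZNF22 and 2191 to 4852 for CYB5A.

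The 15 widest differences towards GCT27 included 5 non-coding or retroviral transcripts besides LINC00458. EDNRB, the endothelin receptor of neural crest and vessels, measured 10292 units in GCT27, 77.5 in NT2D1, 502 in TCam-2 and 22.6 in GCT44, a 133-fold difference. OBI1, its neighbour on chromosome 13, measured 1410 against 5.18 units. HORMAD1, a protein of the meiotic chromosome axis, measured 5949 units in GCT27 and between 44.5 and 69.8 in the other lines. EID1, an inhibitor of an acetyltransferase that works with many transcription factors, measured 4728 units in GCT27 and 2.15 in NT2D1. Since TCam-2 (4581) and GCT44 (8784) were bright too, NT2D1 was the line that stood apart at EID1, and its 2 other bright probe sets gave -4.65 and -5.97. The same held for CAT, the catalase that breaks down hydrogen peroxide, at 15.9 units in NT2D1 and 1182 to 2621 in the other lines. EPAS1, the oxygen-regulated factor HIF-2 alpha, measured 9809 against 200 units (49.0-fold), with 5142 in TCam-2 and 4232 in GCT44. ACADSB, a mitochondrial enzyme of branched-chain amino acid breakdown, measured 4220 against 73.9 units. AK4, a mitochondrial adenylate kinase, measured 16444 against 568, 28.9-fold, and QPCT, which cyclizes N-terminal glutamine, 3391 against 38.2. RAB17, a small GTPase of epithelial cells, measured 2737 against 22.2 units. The transcripts LINC02582 (4310 against 9.32), VHRT (12618 against 228), ARGLU1-DT (5749 against 132) and CMKLR2-AS (2204 against 14.7) were far brighter in GCT27. The first 3 of them were at 305 units or less in each of the other lines. ERVH48-1, of retroviral envelope origin and known from placenta, measured 2211 against 12.2 units and was brighter in TCam-2 (5037).

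Where a called gene had a further bright probe set, the sets mostly pointed the same way. This was so for 100 of the 328 genes higher in NT2D1, and the median of the other sets was at least 2-fold the same way in 95 of them (95.0%) and opposite in 0. Of 108 such genes higher in GCT27, 100 (92.6%) were at least 2-fold the same way and 1 was opposite. A further 95 and 162 genes have 1 probe set only.

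The core pluripotency list had 17 of 20 members compared, with 0 higher in NT2D1 and 2 in GCT27 (2.37% and 2.88% of all genes). The list median was -0.34, against -0.01 over all genes. Besides SOX2, NANOG and LIN28A, the let-7 regulator LIN28B (7936 units in NT2D1 and 5621 in GCT27) and the zinc finger factor SALL4 (2949 and 3356) were within 2-fold. The members called were DPPA2, a chromatin factor of early embryos, at 216 units in NT2D1 and 1761 in GCT27 (8.15-fold), and UTF1, a chromatin factor of undifferentiated cells, at 86.0 and 522 (6.07-fold). PRDM14, which opposes differentiation signals, measured 656 and 2014 units, within 4-fold. VENTX, next to UTF1 among the compared genes of chromosome 10, was higher in GCT27 too, at 389 against 19.5 units.

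Most genes of the naive state had lower values in NT2D1. Of 18 members 15 were compared, and 0 were called higher in NT2D1 and 4 higher in GCT27 (2.88% of all genes). Of the 15 differences 13 were negative, as were 50.7% over all genes, and the list median was -1.31. With the floor at the 70th percentile 1 call was left and the median was -0.41. The called members were NLRP7, a maternal-effect gene, at 60.6 units in NT2D1 and 947 in GCT27; the nuclear receptor NR5A2, at 157 and 1264; the adhesion molecule PECAM1, at 81.7 and 390; and the transcription factor TFCP2L1, at 84.7 and 361. NR5A2 was 8.04-fold higher in GCT27. TFCP2L1 and PECAM1 were under 4-fold with the median over probe sets, and these 2 and NLRP7 (-1.91) were so with the higher floor. KLF5 (165 and 630 units), KLF4 (993 and 1803) and ESRRB (137 and 230) had lower values in NT2D1 without a call, and TBX3 (191 and 55.7) a higher one. TCam-2 was brighter than both lines for NLRP7 (5103) and TFCP2L1 (2528).

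Of 20 primed-state genes 17 were compared, and 3 were higher in NT2D1 and 1 in GCT27 (2.37% and 2.88% of all genes), with a median of 0.13, or -0.10 after scaling to the spiked-in controls. OTX2, a homeobox factor of the late epiblast and forebrain, measured 9043 units in NT2D1 and 750 in GCT27 (12.1-fold), with 9762 in GCT44 and 892 in TCam-2. SOX11, a factor of neural progenitors, measured 2510 and 199 units (12.6-fold) and was below the floor in the other lines. DUSP6 is the third, and GRHL2, which also belongs to the epithelial genes below, was the member higher in GCT27. ZIC2 (11603 and 10584), SALL3 (2194 and 1884) and CD24 (26468 and 29426) were within 2-fold. Both lines were thus bright for these last 3 primed markers.

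Genes of ERK feedback differed in both directions. Of 45 genes of the FGF pathway 36 were compared, with 2 higher in NT2D1 and 4 in GCT27 (2.37% and 2.88% of all genes). The list median was -0.37. The phosphatases DUSP6 and DUSP4 (1715 against 235 units) were higher in NT2D1, while DUSP5 was higher in GCT27 (2038 against 494 units, 4.13-fold) and fell under 4-fold, at -1.70, once the median of each chromosome was subtracted. The immediate early genes EGR1 (1081 units in NT2D1 and 6702 in GCT27) and FOS (314 and 2577) were higher in GCT27, as was FGF13 (771 and 10634), a growth factor relative that stays inside the cell. NT2D1 had the lowest value of the 4 lines for EGR1, FOS and FGF13, the others lying at 6702 to 8482, 2577 to 3049 and 9572 to 15998 units. The ligands FGF2 (1953 and 1423) and FGF4 (696 and 791) and the receptor FGFR1 (3389 and 2881) were within 2-fold.

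In the WNT pathway 46 of 61 genes were compared, with 7 higher in NT2D1 and 1 in GCT27 (2.37% and 2.88% of all genes). The median was 0.16, and it was -0.06 after scaling to the spiked-in controls and -0.02 without probe sets that match several transcripts. The ligand WNT5A measured 1360 units in NT2D1 and 241 in GCT27, while WNT10B measured 56.2 and 348. The receptors FZD1 (1489 and 108) and FZD2 (2413 and 380) were higher in NT2D1. FZD1 rests on its brightest probe set, since the median over its sets gave 0.21. SFRP1, a secreted WNT antagonist, measured 5857 and 310 units, 18.9-fold. LEF1, a nuclear partner of beta-catenin, measured 522 and 24.0, and BAMBI, a decoy receptor of the TGF-beta family induced by WNT signals, 6529 and 1329. Secretion (WLS), receptors, an antagonist and a nuclear factor were thus all represented among the 7, and the ligands WNT5B (222 and 324) and WNT6 (296 and 300) were within 2-fold. At 2-fold the counts were 12 towards NT2D1 and 6 towards GCT27 (10.8% and 12.2% of all genes). Among the 6 were AXIN2 (587 and 1490 units) and RNF43 (79.3 and 216), picked out after their values were seen.

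NODAL, the ligand that sustains the primed state, and its target and inhibitor LEFTY1 were higher in GCT27. NODAL measured 128 units in NT2D1 and 864 in GCT27, and LEFTY1 115 and 1255 (10.9-fold). NODAL fell under 4-fold with the median over probe sets. FST, an inhibitor of activins that also binds BMPs, was higher in NT2D1 at 6152 against 386 units (15.9-fold), with 3.42 and 3.90 at its other bright probe sets. These were the 3 calls among 25 of 34 compared genes, where 5.25% of all genes were called. The list median was 0.00. The receptor ACVR1B measured 1608 and 1587 units.

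The BMP list had the highest median of the 28 lists. Of 32 genes 26 were compared, 6 were higher in NT2D1 (2.37% of all genes) and 0 in GCT27, and the median was 1.40. At 2-fold the counts were 16 and 0, where 10.8% and 12.2% of all genes passed. Among ligands BMP4 measured 797 units in NT2D1 and 237 in GCT27, and BMP2 190 and 20.6. The other compared ligands were within 2-fold: BMP7 (649 and 335), BMP6 (115 and 84.6) and GDF7 (103 and 140), the last with the lower value in NT2D1. Among receptors BMPR1B (317 and 54.1 units, at least 4.14-fold) was called, and fell under the threshold with the median over probe sets, and BMPR2 measured 1231 and 551. Of the targets, ID2, which blocks basic helix-loop-helix factors, measured 7488 and 623 units (12.0-fold), and ID4 3760 and 733. TFAP2A, a factor of surface ectoderm, trophoblast and neural crest, measured 676 and 41.6 units, at least 8.85-fold. The antagonists FST and GREM1 made up the rest of the 6. ID1 (5810 and 5372 units) and ID3 (4088 and 4600), which were picked out after their values were seen, differed by less than 2-fold, so the ID genes were unequally apart. With the median over probe sets 3 calls were left and the list median was 0.71. With the floor at the 70th percentile 3 calls were left as well and the median was 0.80. ID4 was under 4-fold in the former (1.37), and TFAP2A (1.42), GREM1 (1.64) and BMPR1B in the latter.

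**Figure D3:**
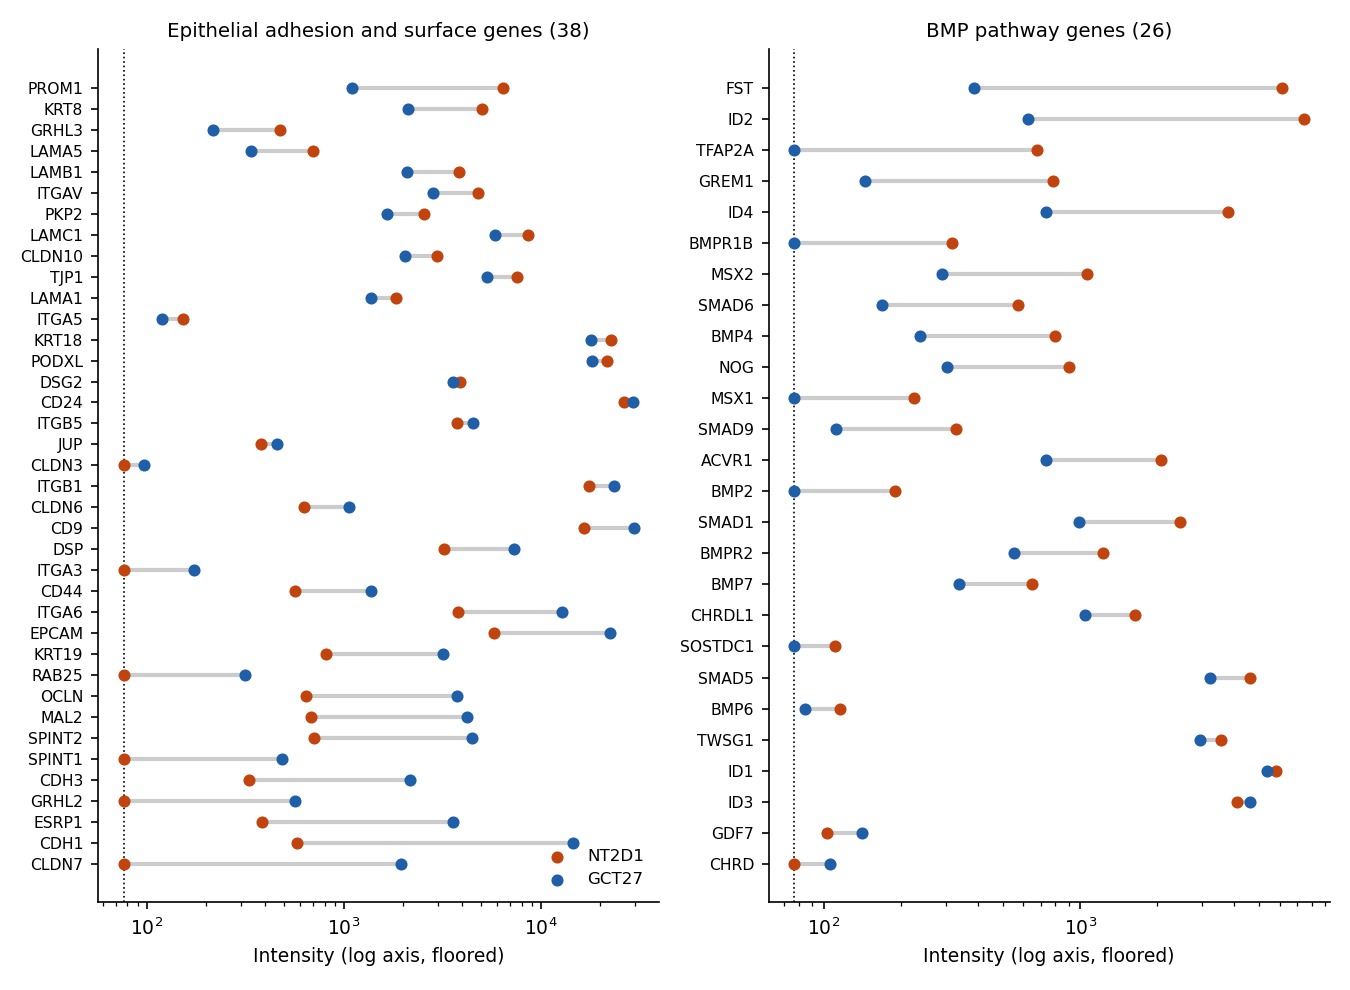
Intensity on a log axis of the 38 compared epithelial genes (left) and the 26 compared BMP pathway genes (right) in NT2D1 and GCT27, ordered by their difference, with the floor as a dotted line. On the left most wide gaps have GCT27 at the brighter end, PROM1 (6467 against 1104 units) being the exception; on the right all 6 genes past 4-fold have NT2D1 at the brighter end.

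Epithelial adhesion genes were the list with the most calls towards GCT27. Of 46 members 38 were compared, 10 were higher in GCT27 and 1 in NT2D1 (2.88% and 2.37% of all genes), while the median was -0.38. With the floor at the 70th percentile 7 calls towards GCT27 were left, without GRHL2, RAB25 and SPINT1. CDH1, the E-cadherin of adherens junctions, measured 580 units in NT2D1 and 14524 in GCT27, a log2 difference of -4.65, with 17193 in TCam-2 and 5.77 in GCT44. Its neighbour CDH3, P-cadherin, measured 332 and 2168 units. The tight junction genes CLDN7 (3.21 and 1963 units, at least 25.7-fold) and OCLN (641 and 3783) were higher in GCT27. OCLN fell under 4-fold, at -1.83, with the median over probe sets. ESRP1, which directs epithelial splicing (386 and 3598, 9.33-fold), and GRHL2, a transcription factor of epithelia (38.9 and 567), were higher in GCT27 too. The protease inhibitors SPINT1 (16.6 and 485) and SPINT2 (710 and 4491), and the membrane traffic genes MAL2 (679 and 4250) and RAB25 (58.7 and 316), completed the 10. The other probe set of SPINT1 measured 235 and 294 units, a difference of -0.32. TCam-2 was bright at all 10, with 820 units for SPINT1 as its lowest value. PROM1, a membrane glycoprotein of stem cells and epithelia, was the member higher in NT2D1. EPCAM measured 5782 and 22390 units, just under 4-fold (-1.95), and TJP1 (7570 and 5358) and CLDN10 (2964 and 2060) were within 2-fold.

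Of the 10 genes higher in GCT27, 4 have a promoter window in the table, fewer than 80%, so no comparison over the group was made. CACCTG or its reverse complement CAGGTG, the E-box to which ZEB1 and ZEB2 are known to bind, stands in 2 of the 4 windows and not in the rest. Only those 2 are shown, with these letters in capitals. They are OCLN at chr5:69492297-69492546 and RAB25 at chr1:156060910-156061159, both on the plus strand. The letters stand in 16.0% of the windows of all compared genes, and a match is a description, not a site. A link of ZEB1 or ZEB2 to these genes was not tested.
OCLN: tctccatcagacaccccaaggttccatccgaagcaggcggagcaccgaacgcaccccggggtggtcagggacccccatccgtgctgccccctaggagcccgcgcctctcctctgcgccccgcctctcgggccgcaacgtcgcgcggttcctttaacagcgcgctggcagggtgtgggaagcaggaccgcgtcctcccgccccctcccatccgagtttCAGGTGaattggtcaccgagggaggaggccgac
RAB25: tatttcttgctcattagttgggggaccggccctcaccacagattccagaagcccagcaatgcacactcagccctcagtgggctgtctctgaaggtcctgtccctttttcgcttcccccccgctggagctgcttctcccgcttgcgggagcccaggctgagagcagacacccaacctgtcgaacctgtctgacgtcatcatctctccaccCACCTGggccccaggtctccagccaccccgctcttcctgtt

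Among 35 of 39 mesoderm and mesenchyme genes compared, 5 were higher in NT2D1 and 4 in GCT27 (2.37% and 2.88% of all genes). The list median was 0.61. ZEB1 and ZEB2, repressors of epithelial genes, were among the 5. ZEB2 measured 1125 units in NT2D1 and 16.1 in GCT27, at least 14.7-fold, and ZEB1 858 and 114, 7.55-fold. ZEB2 gave 1.66 on the log2 scale without probe sets that match several transcripts. With the median over probe sets 0 members of the list were called higher in NT2D1. There ZEB1 fell under 4-fold, and ZEB2 was below the floor in both lines and not compared. Osteoblast cadherin CDH11 (3017 and 509), the heart and forelimb factor TBX5 (379 and 33.8) and TWIST2 (318 and 53.4) were the others, and all 3 lost the call with the median over probe sets. COL1A2, a chain of type I collagen, went the other way at 61.1 and 1345 units, and its other bright probe set gave -4.26. A difference of -0.17 remained without probe sets that match several transcripts, from a set near the floor (35.4 and 86.3 units). COL1A1, the partner chain, measured 6093 and 3982 units. The vessel receptor KDR (125 and 1126) and smooth muscle actin ACTA2 (253 and 1201) were also higher in GCT27, with PECAM1.

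Of the neural list 26 of 40 members were compared, with 4 higher in NT2D1 and 2 in GCT27 (2.37% and 2.88% of all genes). The list median was 0.47. Beside MAP2, the forebrain factor LHX2 measured 1909 units in NT2D1 and 157 in GCT27 (12.2-fold), with 1516 in GCT44. The neural crest factor PAX3 measured 380 and 44.1 and the NOTCH-related ligand DLK1 1404 and 192. DLK1 gave 0.06 without probe sets that match several transcripts, and it also fell under 4-fold with the median over probe sets. ZIC1, a zinc finger factor of the dorsal neural tube, measured 240 and 2124 units and CNTN1, an axonal adhesion protein, 14.5 and 562. ZIC1 gave -0.59 with the median over probe sets. The progenitor filament NES (2259 and 1715) was within 2-fold, and PAX6 (85.3 and 56.5) lay near the floor. In the retinoic acid list 18 of 30 were compared, with 2 higher in NT2D1 and 0 in GCT27 (2.37% and 2.88% of all genes). The 2 were MEIS2 and the nuclear receptor corepressor NRIP1 (4237 and 501 units, 8.45-fold), and the list median was 0.07.

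Of 29 mesendoderm and endoderm genes 14 were below the floor in both, 13 were compared and 2 were called (5.25% of all genes). EOMES, a T-box factor of mesendoderm, measured 238 units in NT2D1 and 1876 in GCT27, and 26237 in GCT44. CXCR4, a chemokine receptor of endoderm and germ cells, measured 439 and 91.5, and 11729 in TCam-2. Trophoblast genes had 3 calls, all higher in NT2D1, among 10 of 26 compared, where 2.37% of all genes were. The median was 0.66, or -0.21 with the median over probe sets. They were TFAP2A, the factor GATA3 (1806 and 283 units) and the secreted protease PAPPA (2052 and 105), and PAPPA gave 1.16 with the median over probe sets. Of 39 HOX genes 15 were compared and 0 were called (5.25% of all genes).

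**Figure D4:**
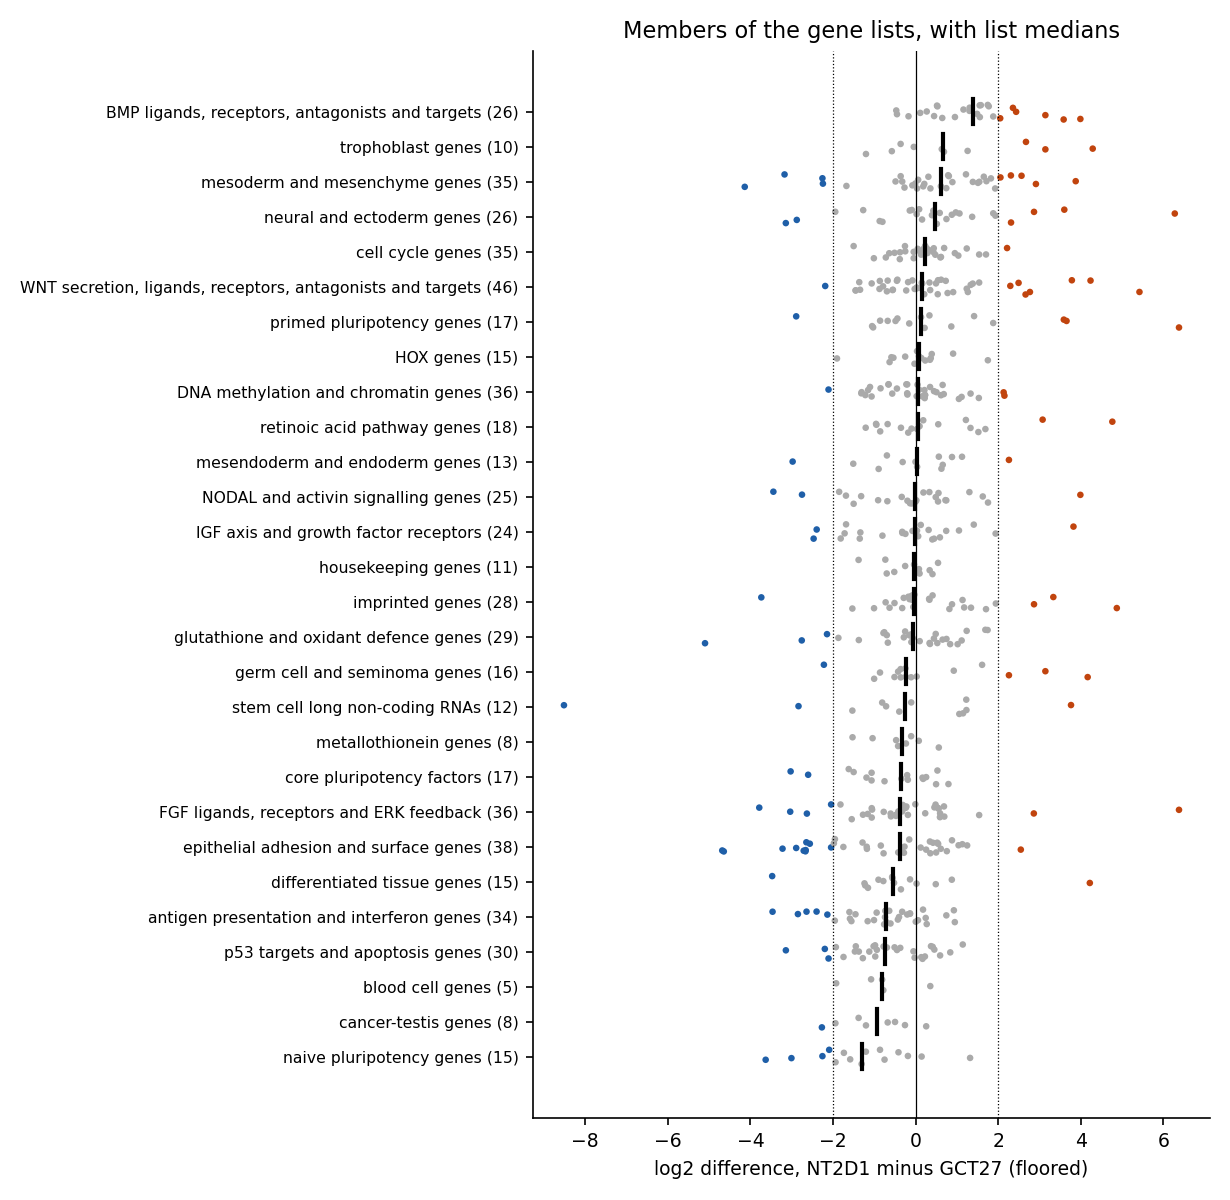
Floored log2 difference, NT2D1 minus GCT27, of each compared member of the 28 gene lists, with the list median as a black bar, the number compared in brackets and dotted lines at 4-fold. The medians run from 1.40 for the BMP list to -1.31 for the naive list, and 14 of the 28 lists hold calls on both sides.

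Beside LINC00458, the list of stem cell long non-coding RNAs held LINC01356, higher in GCT27 (165 and 1177 units), and SOX2-OT, the transcript that overlaps SOX2, higher in NT2D1 (2872 and 211 units, 13.6-fold), although SOX2 itself was at like levels. They were 3 calls among 12 of 31 compared, where 5.25% of all genes were called. The only probe set of SOX2-OT is of the kind that matches several transcripts. Without such sets 0 members of this list were called higher in NT2D1. Of 29 germ cell genes 16 were compared, with 3 higher in NT2D1 and 1 in GCT27 (2.37% and 2.88% of all genes). PIWIL2, a piRNA pathway protein of the germ line, measured 1376 units in NT2D1 and 53.6 in GCT27, at least 18.0-fold, and was below the floor in the other lines. CXCR4 and TFAP2A are also on that list, and SOX15 (109 and 508) was higher in GCT27. Of 38 cancer-testis genes 18 were below the floor in both and 8 were compared. In this list 0 were higher in NT2D1 and 1 in GCT27 (2.37% and 2.88% of all genes). MAGEA6, of a family of near-identical copies that the array may not separate, measured 32.5 and 368 units.

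Imprinted genes divided. Of 40 members 28 were compared, with 3 higher in NT2D1 and 1 in GCT27 (2.37% and 2.88% of all genes), at a median of -0.04. PLAGL1, NAP1L5 (773 against 9.13 units) and DLK1 were higher in NT2D1, and INPP5F (1207 against 16085) was higher in GCT27. INPP5F gave -1.69 with the median over probe sets. Of the chromatin list 36 of 41 genes were compared, with 2 higher in NT2D1 and 1 in GCT27 (2.37% and 2.88% of all genes). The list median was 0.07. TET2, which oxidizes methylated cytosine, measured 340 units in NT2D1 and 72.4 in GCT27, and EZH2, the histone methyltransferase of Polycomb, 3911 and 891. JARID2, a Polycomb partner, measured 3544 and 15277. EZH2 lost the call when chromosome medians were subtracted or arrays were scaled to the spiked-in controls (1.90 at the lowest), and JARID2 without probe sets that match several transcripts (-1.59). The maintenance methyltransferase DNMT1 (5532 and 4335) and DNMT3A (3470 and 3991) were within 2-fold, and DNMT3B measured 11360 and 23760.

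Most antigen presentation and interferon genes had lower values in NT2D1, with 34 of 47 compared, 0 called higher in NT2D1, 5 higher in GCT27 (2.37% and 2.88% of all genes) and a median of -0.72. At 2-fold the counts were 0 and 12 (10.8% and 12.2% of all genes), and 26 of the 34 differences were negative (50.7% over all genes). IFIT1, which binds foreign RNA, measured 3.54 units in NT2D1 and 843 in GCT27, IFI6 71.5 and 551, and ISG15, a ubiquitin-like modifier, 235 and 1465. The peptide transporter TAP1 measured 22.5 and 403 units and the immunoproteasome subunit PSMB8 3.81 and 336. With the floor at the 70th percentile 1 of the 5 calls was left and the median was -0.20. The class I light chain B2M (9138 and 15177) and HLA-C (2387 and 2291) were within 2-fold. HERC5 and HERC6, neighbours on chromosome 4, were both among the genes higher in GCT27.

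Of 36 p53 targets and apoptosis genes 30 were compared, with 0 higher in NT2D1 and 3 in GCT27 (2.37% and 2.88% of all genes). The list median was -0.73. Without probe sets that match several transcripts the counts turned to 1 and 0, over 20 genes, and with the floor at the 70th percentile they were 0 and 1. The death receptor FAS measured 198 and 855 units, the decoy receptor TNFRSF10C 95.5 and 843, and SESN1, a stress-response target of p53, 832 and 3815. FAS and TNFRSF10C lost the call under at least 2 alternatives each. MDM2, which degrades p53 and is its target, measured 3509 units in NT2D1 against 11332 to 11766 in the other lines, and the inhibitor CDKN1A 262 and 724 in the pair. Oxidant defence had 29 of 30 genes compared, 0 higher in NT2D1 and 3 in GCT27 (2.37% and 2.88% of all genes). The 3 were CAT, GSTT1 (114 against 770 units) and GPX3 (112 against 494). The list median was -0.07, and GPX1 measured 16612 and 5145 units. In the growth factor list 24 of 32 genes were compared, with 1 higher in NT2D1 and 2 in GCT27 (2.37% and 2.88% of all genes). IGFBP5 was higher in NT2D1 (1084 against 52.3 units), though the median over its probe sets gave 0.07, and IGFBP7 (2239 and 12398) and the EGF receptor ligand TGFA (112 and 591) were higher in GCT27. Of 35 cell cycle genes 1 was called, where 5.25% of all genes were. It was the G1 kinase CDK6 (1814 and 390 units), which was under 4-fold with the median over probe sets (1.38) and after scaling to the spiked-in controls. PCNA (14204 and 11991) and MCM2 (5469 and 4471) were within 2-fold. The proliferation antigen MKI67 measured 493 and 1395 units. Metallothioneins (8 compared), blood cell genes (5) and housekeeping genes (11) had 0 calls (5.25% of all genes), with medians of -0.33, -0.81 and -0.04.

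Neither TCam-2 nor GCT44 sided with the same line of the pair throughout. At the 328 genes higher in NT2D1, TCam-2 was nearer to NT2D1 in 135 (41.2%) and GCT44 in 151 (46.0%), both in 79 and neither in 121 (36.9%). At the 398 genes higher in GCT27, TCam-2 was nearer to GCT27 in 190 (47.7%) and GCT44 in 137 (34.4%), both in 80 and neither in 151 (37.9%). DUSP6, WLS, ZNF22 and CYB5A thus belong to the genes at which GCT27 was the low line, EID1, EPAS1 and CAT to those at which NT2D1 was, and MAP2, RGS5, HORMAD1 and LINC02582 to those at which 1 line of the pair was the high line alone. These values share the NT2D1 and GCT27 arrays and are given as a description.

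Called genes next to each other in the order of compared genes formed 27 runs of 58 genes on the GCT27 side. On the NT2D1 side they formed 17 runs of 34 genes. Of all compared genes, 2.88% were called higher in GCT27 and 2.37% higher in NT2D1. How many runs scattered calls would form was not worked out, and distances between neighbours were not considered. The longest run, chosen after its values were seen, was C4orf33, PCDH10, PABPC4L and PCDH18 on chromosome 4, all higher in GCT27. In it the protocadherins PCDH10 (3.42 units in NT2D1 and 1124 in GCT27) and PCDH18 (112 and 2497) were the widest apart. AKR1C1, AKR1C2 and AKR1C3 on chromosome 10 formed a run of 3, but these copies are alike enough in sequence that their probe sets may share signal. The complement genes C1S (124 and 2197), C1R (253 and 1116) and C1RL on chromosome 12 formed the other run of 3. On the NT2D1 side each run had 2 genes, such as DLX6 and DLX5 on chromosome 7 and SCG5 and GREM1 on chromosome 15.

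Whole chromosomes were also offset between the lines. Among 8110 genes above the 70th percentile of intensity in both lines the median difference was 0.03. It was -0.61 for the 426 such genes of chromosome 17 and -0.42 for the 324 of chromosome 10, and it was 0.86 for the 82 of chromosome 21 and 0.39 for the 326 of chromosome 9. Over the 774 compared genes of chromosome 17, 78.7% had the higher value in GCT27, against 50.7% of all compared genes. Of the 774, 3 were called higher in NT2D1 and 35 in GCT27 (2.37% and 2.88% of all genes). Against TCam-2 the chromosome 17 median, over genes bright in all lines, was -0.22 for NT2D1 and 0.42 for GCT27, and the chromosome 21 median 0.34 and -0.49. Against GCT44 the same medians were -0.34 and 0.29, and 0.61 and -0.37. The 2 lines thus departed in opposite directions from both other lines on these chromosomes. After the median of each chromosome was subtracted, 647 of the 726 calls (89.1%) stood.

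**Figure D5:**
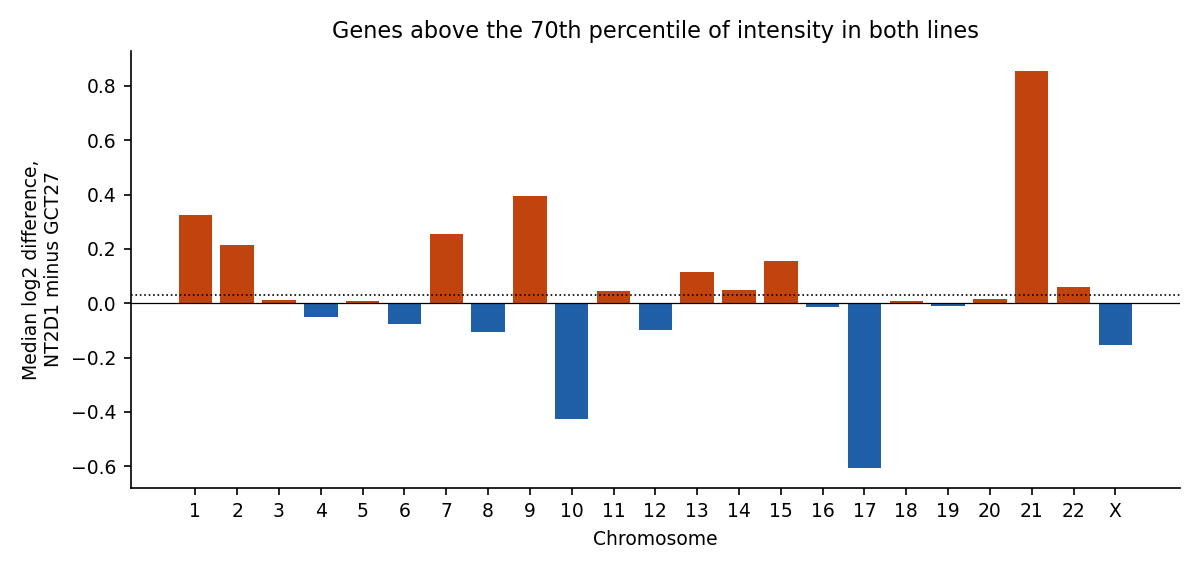
Median log2 difference, NT2D1 minus GCT27, of the genes of each chromosome that lay above the 70th percentile of intensity in both lines, with the median over all such genes (0.03) as a dotted line. Chromosome 21 (0.86) stands highest, and chromosomes 17 (-0.61) and 10 (-0.42) lowest.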

How the data were processed

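The authors hybridized total RNA of 4 lines to Affymetrix U133 Plus arrays, 1 array per line. Their deposited table gives linear intensity per probe set, with the same trimmed mean (499.9 after 2% at each end) on each array. The submitters' processing notes name RMA, with no version, whose usual output is log2. The values are not of that form, and log2 was taken here. A genome build is not given in the sources used here. Single-gene probe sets numbered 41097, 1801 listed several genes and 11777 were unlisted, and 41043 matched RefSeq (GRCh38.p14) by gene ID.

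Each gene was read from its brightest single-gene probe set, by the mean of all arrays. The floor was the 50th percentile (76.4 units), and a gene was compared if either line reached it. Genes at least 4-fold apart were called, with no test, in Python 3.11.15 (pandas 2.3.3, numpy 2.4.6). The procedure was tested on simulated data.

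Genes named are the 15 widest each way without Y-linked genes and XIST, the markers DUSP6, WLS and LINC00458, in each of 28 lists the called members and up to 6 others in list order, and up to 5 called neighbours of the widest genes. Further genes named as levels of marker sets, at the threshold, or in runs were taken outside that rule. The pair, members and lists (914 entries: 628 compared, 167 below the floor, 119 without a probe set) were chosen with earlier results of these data known. Alternatives changed the probe set, filter, floor, normalization and threshold. Scaling to hybridization controls and subtracting chromosome medians were chosen after the data were seen.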

Additional observations from a re-analysis of the deposited data

How the results depend on the processing

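No gene called at 4-fold and named in the lists or among the widest changed direction, while differences near 0, such as that of SOX2 (0.17), lie within the 0.23 by which the spiked-in controls differ. Against 328 genes higher in NT2D1 and 398 higher in GCT27, the counts were 618 and 804 with no floor, 147 and 212 with the floor at the 70th percentile (252 units), 1493 and 1681 at 2-fold and 89 and 116 at 8-fold. The median over probe sets left 197 higher in NT2D1 and 284 higher in GCT27. Under the hybridization-control scaling, added after seeing the data, they were 267 and 548. Counts under the other alternatives lay within 1.5 times the main ones. Of the 30 widest genes 28 stayed at least 4-fold apart in each setting that gave them a value (all 11 settings for 23 of the 30), PNMA2 and MAF being the exceptions with the median over probe sets. Of 83 other called list members, 35 did so. Levels near the floor carry no order, and their differences depend on it. Of 28 list medians 13 changed sign in some setting: 6 with the median over probe sets, among them trophoblast genes (-0.21), stem cell non-coding RNAs (0.47) and imprinted genes (0.39), and 4 after scaling to the spiked-in controls (primed, WNT, chromatin and mesendoderm genes). No paired analysis was possible because no line has a second sample.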

Other observations

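Probe sets that match several genes or none by the annotation were left out of the gene table. Of 5504 such probe sets above the floor in NT2D1 or GCT27, 81 were at least 4-fold higher in NT2D1 and 88 at least 4-fold higher in GCT27, 3.07% in all. They stay without a gene name here.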
